A study of Mus musculus with 29 samples.

Results

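Pou4f3 binding sites were compared between embryoid bodies that expressed Gfi1 and Pou4f3 (iG+P) and embryoid bodies that expressed Atoh1 as well (iGPA), to ask where Pou4f3 was found with and without Atoh1. The 32632 iG+P summits and the 18751 iGPA summits that the authors kept were given windows of 300 bp, and windows that shared at least 1 bp were joined into 1 site. This gave 37640 sites, of the 78408 sites found when all 9 peak lists of the series were joined in the same way. The sites fell into 13340 shared sites (35.4%), 18918 iG+P only sites (50.3%) and 5382 iGPA only sites (14.3%). Of the 32258 iG+P sites, 41.4% (95% interval 40.8 to 41.9) were shared, and of the 18722 iGPA sites, 71.3% (70.6 to 71.9).

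Both lines were mouse embryonic stem cells (mESCs) of the A2loxCre parental line with a doxycycline-inducible cassette. The iG+P cassette carried Gfi1, Pou4f3 and the fluorescent protein Venus, and the iGPA cassette carried Gfi1, Pou4f3, Atoh1 and Venus. Embryoid bodies are clumps in which stem cells differentiate. They received doxycycline at 2 µg/ml for 48 h and were collected on day 6. Pou4f3 was precipitated through a MYC tag by chromatin immunoprecipitation followed by sequencing (ChIP-seq), with 2 libraries per line, and the study used a different clone of each line for each replicate. The groups used beside these were Pou4f3 in iPou4f3 (Pou4f3 alone) and iP+A (Pou4f3 with Atoh1), Atoh1 through its FLAG tag in iGPA, iP+A, iG+A (with Gfi1) and iAtoh1 (Atoh1 alone), and Gfi1 in iGPA with an antibody to the protein and 1 library. All of these lines carried Venus and received the same doxycycline treatment. Peaks were called on merged replicates, so a site has 1 value per list and no spread between replicates, and the Atoh1 transgene cannot be told apart from other differences between the iG+P and iGPA clones. The iGPA Pou4f3, Atoh1 and Gfi1 lists came from the same line and the same input libraries.

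Pou4f3 is a POU-domain transcription factor that binds AT-rich DNA and is needed for hair cells of the inner ear to mature and survive. Atoh1 is a basic helix-loop-helix factor that starts hair cell development, and it binds E-boxes, the class of sites written CANNTG. Gfi1 is a zinc-finger factor that acts with both in hair cells. It is known as a repressor, and the study proposes that it is also a co-activator of Atoh1.

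The sequences of the strongest sites are shown first, since the classes differed in what these sites held. The 3 strongest shared sites by fold enrichment each held the run CATGCATTAT, printed in capitals, on the plus strand of build mm9.
Casz1, shared, chr4:148116861-148117060: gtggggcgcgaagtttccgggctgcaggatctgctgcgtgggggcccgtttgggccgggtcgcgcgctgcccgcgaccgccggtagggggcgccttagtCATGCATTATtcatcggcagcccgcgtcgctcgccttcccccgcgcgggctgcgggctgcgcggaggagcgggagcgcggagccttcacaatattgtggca
Osbpl7, shared, chr11:96912664-96912863: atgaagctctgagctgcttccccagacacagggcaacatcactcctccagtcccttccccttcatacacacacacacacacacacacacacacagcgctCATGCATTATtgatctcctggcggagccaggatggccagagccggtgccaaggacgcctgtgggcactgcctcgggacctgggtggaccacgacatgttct
Coro1b, shared, chr19:4148016-4148215: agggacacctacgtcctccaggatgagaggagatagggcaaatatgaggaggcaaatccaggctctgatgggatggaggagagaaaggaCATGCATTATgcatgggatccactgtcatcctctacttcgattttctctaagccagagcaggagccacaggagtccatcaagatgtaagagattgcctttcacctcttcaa
The first site lay between genes, 61577 bp upstream of a start of Casz1, which encodes a zinc-finger transcription factor. The Osbpl7 site lay 621 bp downstream of a start of that gene, which encodes an oxysterol-binding protein, and the Coro1b site lay 503 bp upstream of a start of that gene, which encodes an actin-binding coronin. The run was found in the 250 bp window centred on the summit at 3.37% (3.07 to 3.69) of shared sites, 0.587% (0.483 to 0.706) of iG+P only sites and 0.892% (0.658 to 1.18) of iGPA only sites. In windows 1000 bp to each side the share was 0.0750%, 0.0714% and 0.0372%. The run was selected from these 3 sites after their values were seen, so its share at the other sites is a description.

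The 3 named iG+P only sites, the highest in fold enrichment after 2 sites that were left out, shared a longer run of 63 bp, in capitals in 2 of the 3 sites that held it. It reads on the plus strand at the Tbl1xr1 site and on the minus strand at the Pkdcc site.
Tbl1xr1, iG+P only, chr3:21512945-21513144: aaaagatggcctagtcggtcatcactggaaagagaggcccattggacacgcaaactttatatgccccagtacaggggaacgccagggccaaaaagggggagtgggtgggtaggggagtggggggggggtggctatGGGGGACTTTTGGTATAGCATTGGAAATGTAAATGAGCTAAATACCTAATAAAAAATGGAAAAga
Pkdcc, iG+P only, chr17:83388200-83388399: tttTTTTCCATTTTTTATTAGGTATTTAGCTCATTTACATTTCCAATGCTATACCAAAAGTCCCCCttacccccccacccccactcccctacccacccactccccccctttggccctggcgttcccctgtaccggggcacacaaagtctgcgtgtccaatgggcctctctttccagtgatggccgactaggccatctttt
The third was the Sec16b site, at fold 13. A run of this length in 3 places is a repeated sequence, and it was found at 14 iG+P only sites, 11 shared sites and 1 iGPA only site. Of the sites left out, 1 had its summit in a short tandem repeat and 1 lay on a chromosome from which no site was named.

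The iGPA only sites were led by sequences with E-boxes. In the next 3 the capitals mark CAGCTG or CAGATG, read as CATCTG on the other strand, and the Pou4f pattern, which is ATAATTAAT or ATTAATTAT on the other strand with at most 1 mismatch. Crim1 and Khdrbs1 are among the 3 iGPA only sites of highest Pou4f3 fold, and the Dnahc2 site is the iGPA only site of highest Atoh1 fold.
Crim1, iGPA only, chr17:78637406-78637605: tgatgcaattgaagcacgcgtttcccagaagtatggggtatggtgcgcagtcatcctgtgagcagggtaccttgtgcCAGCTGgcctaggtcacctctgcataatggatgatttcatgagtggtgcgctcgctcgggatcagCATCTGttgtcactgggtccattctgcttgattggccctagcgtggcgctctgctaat
Khdrbs1, iGPA only, chr4:129386871-129387070: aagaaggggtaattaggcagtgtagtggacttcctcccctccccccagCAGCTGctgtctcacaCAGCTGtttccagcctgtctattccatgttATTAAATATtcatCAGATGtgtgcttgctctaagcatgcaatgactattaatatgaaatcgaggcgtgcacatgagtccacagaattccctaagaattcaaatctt
Dnahc2, iGPA only, chr11:69273498-69273697: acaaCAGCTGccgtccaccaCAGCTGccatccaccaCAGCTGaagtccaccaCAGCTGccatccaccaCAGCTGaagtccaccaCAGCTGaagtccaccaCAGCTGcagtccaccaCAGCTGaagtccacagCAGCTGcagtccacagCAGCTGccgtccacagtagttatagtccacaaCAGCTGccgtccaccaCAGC
All 3 sites lay in introns. The Khdrbs1 site held CAGCTG or CAGATG 3 times and the Pou4f pattern 1 time in the 250 bp window, which is wider than the 200 bp printed. The Dnahc2 site is a repeated unit with 13 E-boxes in its 250 bp window.

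Fold enrichment, the peak caller's ratio of ChIP fragments to their local background at a summit, was lower at the sites of 1 line than at shared sites. The iG+P list had a median fold of 3.72 at shared sites (quartiles 3.06 and 4.93) and 2.85 at iG+P only sites (2.63 and 3.17). The iGPA list had a median of 4.66 at shared sites (3.64 and 6.70) and 3.50 at iGPA only sites (3.06 and 4.06). The classes are set by presence in these same lists, so these values are a description and were not tested. The peak caller's −log10 p reached 20 at 275 iG+P only sites (1.45%), 218 iGPA only sites (4.05%) and, in the iGPA list, 4297 shared sites (32.2%).

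**Figure D1:**
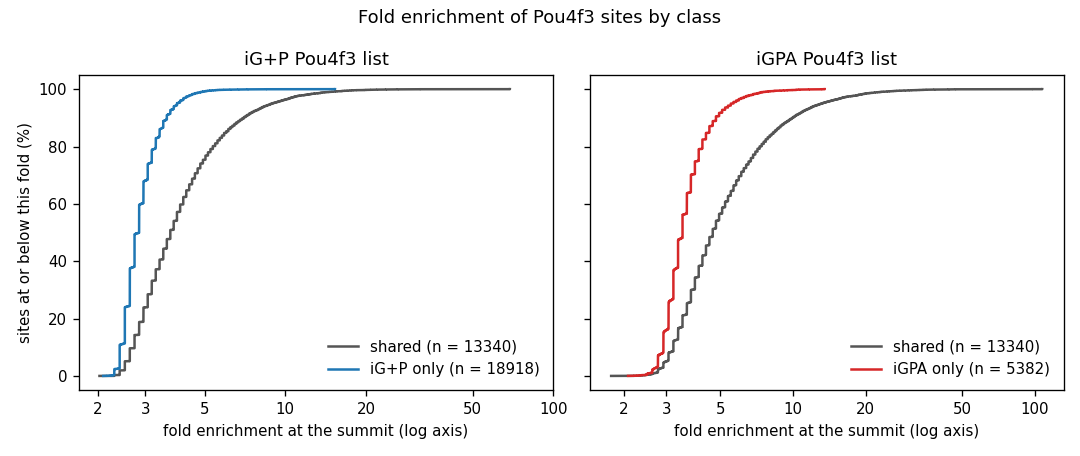
Cumulative share of sites (vertical axis, percent) at or below each fold enrichment (horizontal log axis) in the iG+P list (left) and the iGPA list (right), with 1 line per class. Sites of 1 line rise to the left of shared sites in each list, with medians of 2.85 against 3.72 in iG+P and 3.50 against 4.66 in iGPA, and the steps are whole fragments.

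The lists also differed in how weak a peak could be called. The most frequent local background was 8.14 fragments in the iG+P list and 5.87 in the iGPA list, recovered from the fold and −log10 p of each peak, and the lowest fold called at that background was 2.30 and 2.62. Of the iG+P only sites, 14298 (75.6%) had a fold of at least 2.62 and 906 (4.79%) a fold of at least 4. At shared sites the iGPA fold was higher than the iG+P fold by a median of 0.345 on the log2 scale (quartiles 0.0901 and 0.605), and the folds of the 13340 sites had a Spearman correlation of 0.672, given as a description because sites share their libraries. In pooled cells, fewer cells with Pou4f3 at a site and weaker binding per cell cannot be told apart.

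The class sizes depended on the strength of the peaks that were let in. With the iG+P list shortened to the length of the iGPA list, the iG+P only sites numbered 7846 and the iGPA only sites 7882, and 58.0% of iG+P sites and 57.9% of iGPA sites were shared. With a −log10 p of at least 10 in each list there were 3638 iG+P only and 3943 iGPA only sites, so that the order of these classes was reversed, and 63.3% of iG+P sites and 61.5% of iGPA sites were shared.

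The named sites had the following values. At the Casz1 site the fold was 69.0 in iG+P, 107 in iGPA, 72.4 in iPou4f3 and 42.3 in iP+A, and an iGPA Atoh1 peak had a fold of 2.95. The Osbpl7 site had a fold of 58.0 in iG+P, 97.5 in iGPA, 49.2 in iPou4f3 and 33.2 in iP+A, and no Atoh1 peak. At the Coro1b site the values were 34.0 in iG+P, 55.0 in iGPA, 43.7 in iPou4f3 and 17.1 in iP+A, with no Atoh1 peak. These 3 sites thus had a peak in all 4 Pou4f3 lists, and the fold is scaled to the background of its own list. No Pou4f or E-box match lay in the 250 bp window of any of these 3 sites. The Pou4f pattern is a single sequence with at most 1 mismatch, so other sequences that Pou4f3 may bind were not counted. The run CATGCATTAT of these sites contains GCATTA, a word found at 27.7% of shared sites and 7.94% of their flanks.

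The 3 named iG+P only sites carried Atoh1 peaks in iGPA although no iGPA Pou4f3 peak was kept there. Tbl1xr1, a subunit of a corepressor complex, had a site of Pou4f3 fold 13.3 in iG+P and Atoh1 fold 6.38 in iGPA and 8.70 in iG+A, 462529 bp upstream of its nearest start. This site also had a Gfi1 peak of fold 5.45 in iGPA, which the Sec16b and Pkdcc sites lacked. The Sec16b site had an iG+P fold of 13, Pou4f3 folds of 4.97 in iPou4f3 and 9.96 in iP+A, and Atoh1 folds of 8.15 in iGPA, 9.16 in iAtoh1, 9.04 in iP+A and 11.7 in iG+A. The Pkdcc site had an iG+P fold of 9.91, Pou4f3 folds of 6.07 in iPou4f3 and 9.60 in iP+A, and Atoh1 folds of 9.91 in iGPA, 15.1 in iG+A and 8.94 in iP+A. None of the 3 held a Pou4f or E-box match in the 250 bp window, and the 3 strongest shared sites held none either.

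The 3 iGPA only sites of highest Pou4f3 fold had Pou4f3 peaks in iP+A, which carries Atoh1, and none in iPou4f3, which does not. This did not hold for all strong sites. Outside the dense tracts described below, 217 iGPA only sites had a −log10 p of at least 20. Of these, 69.6% had a Pou4f3 peak in iP+A and 18.9% in iPou4f3. The Crim1 site, in an intron of a gene for a transmembrane protein that binds bone morphogenetic proteins, had a Pou4f3 fold of 13.5 in iGPA and 4.98 in iP+A, and Atoh1 folds of 17.1 in iGPA and 8.28 in iP+A. A site 470606 bp from Nuf2, a kinetochore gene, had Pou4f3 folds of 13.4 in iGPA and 4.87 in iP+A, Atoh1 folds of 14.2 and 6.99, and a Gfi1 fold of 9.90 in iGPA. The Khdrbs1 site, in a gene for an RNA-binding protein, had Pou4f3 folds of 13.1 and 5.66, Atoh1 folds of 24.0 and 13.9, and a Gfi1 fold of 12.8. Its Atoh1 fold was 3.87 in iG+A and 3.18 in iAtoh1, the lines without Pou4f3, where the Crim1 and Nuf2 sites had no kept Atoh1 peak.

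The site of highest Atoh1 fold in each class held many E-boxes in repeated units longer than 12 bp. It was in an intron of Hgsnat for shared sites (Atoh1 fold 46.0, 9 E-boxes), of Spata17 for iG+P only sites (39.7, 12 E-boxes) and of Dnahc2 for iGPA only sites (72.1, 13 E-boxes). Atoh1 peaks were kept there in all 4 Atoh1 lists, those of iG+A and iAtoh1 without Pou4f3 among them. Gfi1 peaks of iGPA lay at the Hgsnat site (fold 3.44) and the Dnahc2 site (7.04) and not at the Spata17 site.

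Atoh1 peaks of the iGPA line lay at 1627 of 5382 iGPA only sites, 30.2% (29.0 to 31.5), against 2322 of 13340 shared sites, 17.4% (16.8 to 18.1), and 2771 of 18918 iG+P only sites, 14.6% (14.1 to 15.2). Over all 37640 sites the share was 17.9%. In windows 5 kb to each side of the same sites it was 1.69%, 1.63% and 4.80%. The iGPA only sites exceeded the iG+P only sites by 15.6 percentage points (14.3 to 16.9) and the shared sites by 12.8 points (11.4 to 14.2), each in the same direction on 20 of 20 chromosomes. The difference from iG+P only sites was 7.06 points (5.75 to 8.36) with the iG+P list shortened to the iGPA length and 8.02 points (6.75 to 9.31) with all called peaks, and that from shared sites 5.74 points (4.39 to 7.09) with all called peaks. The intervals, by Newcombe's method here and Clopper-Pearson's exact method for shares, hold counting error alone, and sites close to each other are not independent. The iP+A Atoh1 list, from another line with its own input, held 18949 kept summits beside 26231 in the iGPA Atoh1 list. The iP+A Atoh1 list had a peak at 24.2% of iGPA only, 13.2% of shared and 16.2% of iG+P only sites. Its difference of 7.98 points between iGPA only and iG+P only sites was −0.963 points with a −log10 p of at least 10 in every list, −2.15 with the iG+P list shortened to the iGPA length and −4.34 with all called peaks, but 16.8 points (15.5 to 18.2) at sites over 1 kb from a start and outside the dense tracts described next.

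The lines without Pou4f3 showed the reverse order for the sites of 1 line. Their Atoh1 lists held 20504 kept summits in iG+A and 15568 in iAtoh1. The iG+A Atoh1 list had peaks at 16.0% of iG+P only, 10.2% of iGPA only and 5.12% of shared sites, and the iAtoh1 list at 16.0%, 7.95% and 4.21%. Much of this lay in tracts crowded with sites, which were defined after the data were seen. A site was in a tract when the span from 50 kb before to 50 kb after it held at least 10 sites, itself included. There were 139 such tracts of 17.3 Mb in all, and they held 27.1% of iG+P only, 4.19% of shared and 5.95% of iGPA only sites. At sites over 1 kb from a start and outside the tracts, the iG+A share was 5.28% of 10151 iG+P only, 5.71% of 4238 iGPA only and 1.75% of 11244 shared sites, and the iAtoh1 share 5.41%, 4.55% and 1.42%. The difference between iGPA only and iG+P only sites was then 0.430 points (−0.370 to 1.28) in iG+A and −0.854 points (−1.60 to −0.0618) in iAtoh1. Over all sites it was −5.74 and −8.04 points with the kept summits, and −17.4 and −19.8 points with all called peaks. At sites over 1 kb from a start and outside the tracts, the iGPA Atoh1 share was 28.7% of iGPA only, 13.7% of shared and 4.77% of iG+P only sites. This is a difference of 23.9 points (22.5 to 25.4) between the sites of 1 line.

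**Figure D2:**
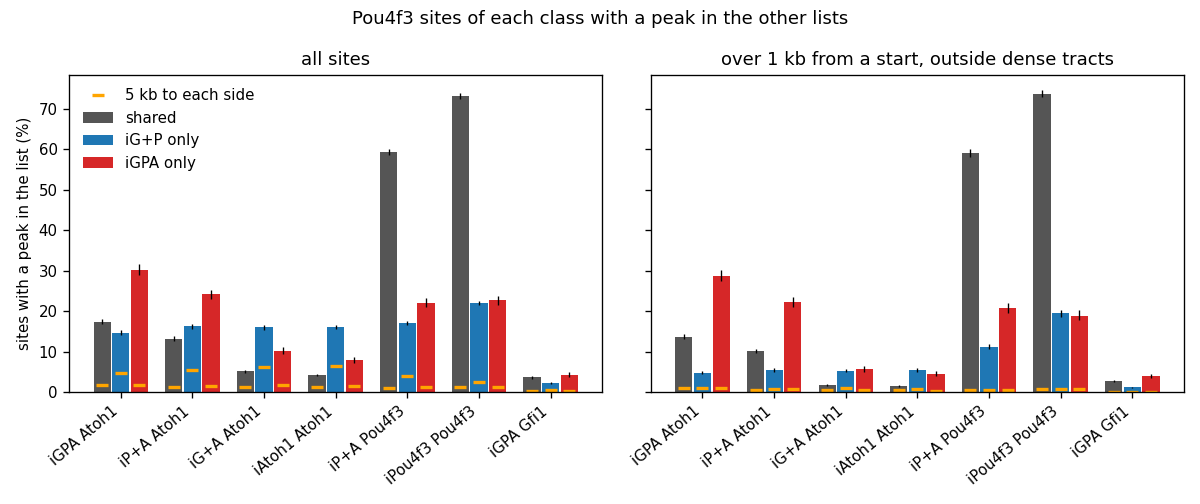
Share of shared, iG+P only and iGPA only Pou4f3 sites with a peak in each other list (vertical axis, percent), for all sites (left) and for sites over 1 kb from a start and outside dense tracts (right). Black lines are 95% intervals and orange ticks the share 5 kb to each side. The iGPA only bar is highest for iGPA Atoh1 (30.2% of all sites, 28.7% of distal sites outside tracts) and shared sites are highest for both Pou4f3 lists.

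The other Pou4f3 lists were not used to form the classes. They held 22433 kept summits in iPou4f3 and 17082 in iP+A, with 16.2% and 31.5% of called peaks left out. Shares in these lists are thus not set against each other at equal length. Over all sites, 40.2% had a peak in iPou4f3 and 32.7% in iP+A. Shared sites had a peak in iPou4f3 at 73.1% and in iP+A at 59.3%, iG+P only sites at 22.0% and 17.0%, and iGPA only sites at 22.7% and 22.0%. The iPou4f3 share differed between iGPA only and iG+P only sites by 0.710 points (−0.540 to 1.99), an interval that includes 0, and the iP+A share by 4.95 points (3.74 to 6.20). The iPou4f3 difference took either sign in other settings, at 5.16 points (3.27 to 7.05) with a −log10 p of at least 10 in every list, 1.94 points (0.536 to 3.35) at equal list length, −3.86 points (−5.24 to −2.45) with windows of 1000 bp and −2.46 points (−3.81 to −1.08) outside dense tracts. With a −log10 p of at least 10 in every list the iP+A difference was −3.13 points, and with all called peaks −6.52 points. Without the dense tracts and outside 1 kb of a start the iP+A difference was 9.58 points (8.23 to 11.0).

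Among iGPA only sites, those found again in the line with Atoh1 and those found again in the line without it had different contents. There were 720 sites (13.4%) with a peak in iP+A and not in iPou4f3, and 59.7% (56.0 to 63.3) of these had an iGPA Atoh1 peak and 62.8% (59.1 to 66.3) an E-box pattern. The 758 sites (14.1%) with a peak in iPou4f3 and not in iP+A had an Atoh1 peak at 16.5% (13.9 to 19.3) and an E-box pattern at 25.5% (22.4 to 28.7). The intervals of these groups did not overlap. A further 462 sites (8.58%) were in both lists and 3442 sites (64.0%) in neither, where 27.1% (25.6 to 28.6) had an Atoh1 peak. Shared sites were in both other lists at 51.8% and in neither at 19.4%, and iG+P only sites were in neither at 68.1%. The other classes differed in the same direction. Shared sites in iP+A and not in iPou4f3 had an Atoh1 peak at 31.9%, and those in iPou4f3 and not in iP+A at 8.72%. For iG+P only sites these shares were 26.8% and 17.7%. The E-box pattern was found at 34.6% and 22.2% of these shared sites and at 21.5% and 20.6% of these iG+P only sites.

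Gfi1 peaks, from the short iGPA Gfi1 list of 3012 summits in 1 library, lay at 3.00% of all sites. The share was 4.27% (3.75 to 4.85) of iGPA only, 3.61% (3.30 to 3.94) of shared and 2.20% (2.00 to 2.42) of iG+P only sites. The iGPA only sites exceeded iG+P only sites by 2.07 points (1.52 to 2.68), which was 0.671 points (0.0962 to 1.25) with the iG+P list shortened to the iGPA length and 3.24 points (2.65 to 3.89) with all called peaks. Their difference from shared sites, 0.668 points (0.0616 to 1.32), was between −0.637 and 1.18 points in the alternatives tried. The letters of the Gfi1 site, AATCACAGC or AATCACTGC on either strand, were found at 0.547% of shared, 0.544% of iG+P only and 0.632% of iGPA only sites, close to the 0.446% to 0.560% of flanking windows.

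The Pou4f pattern was most frequent at shared sites and the E-box pattern at iGPA only sites. The Pou4f pattern lay in the 250 bp window at 42.0% of all sites, and at 59.8% (59.0 to 60.6) of shared, 41.7% (40.3 to 43.0) of iGPA only and 29.6% (28.9 to 30.2) of iG+P only sites, against 10.2% to 10.8% of windows 1000 bp to each side. The E-box pattern, CAGCTG or CAGATG, lay at 27.1% of all sites, and at 41.5% (40.2 to 42.9) of iGPA only, 27.1% (26.4 to 27.9) of shared and 22.9% (22.3 to 23.5) of iG+P only sites, against 24.9% to 26.5% of the flanking windows. The iGPA only sites exceeded iG+P only sites by 18.7 points (17.2 to 20.1) and shared sites by 14.4 points (12.9 to 15.9) in the E-box pattern, and by 8.59 and 3.08 points when any CANNTG was counted. The shares of shared and iG+P only sites were thus near their own flanks, at 26.5% and 24.9%. A stricter 10-letter Atoh1 E-box lay at 6.93% of iGPA only, 2.52% of shared and 1.46% of iG+P only sites, with 1.93% to 2.06% in the flanks. The octamer ATGCAAAT, searched on both strands, was found at 2.19% of shared, 2.15% of iG+P only and 2.21% of iGPA only sites, beside 1.81% to 2.10% of flanking windows.

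The surplus of the Pou4f pattern at iGPA only over iG+P only sites was 12.1 points (10.6 to 13.6) over all sites but 3.03 points (1.24 to 4.82) at distal sites outside dense tracts, where the shares were 49.7% and 46.6%. With no mismatch allowed, those distal sites held it at 7.24% of iGPA only and 8.52% of iG+P only sites, the opposite direction (−1.28 points, −2.21 to −0.303). The E-box difference at the same distal sites was 22.5 points (20.8 to 24.2).

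**Figure D3:**
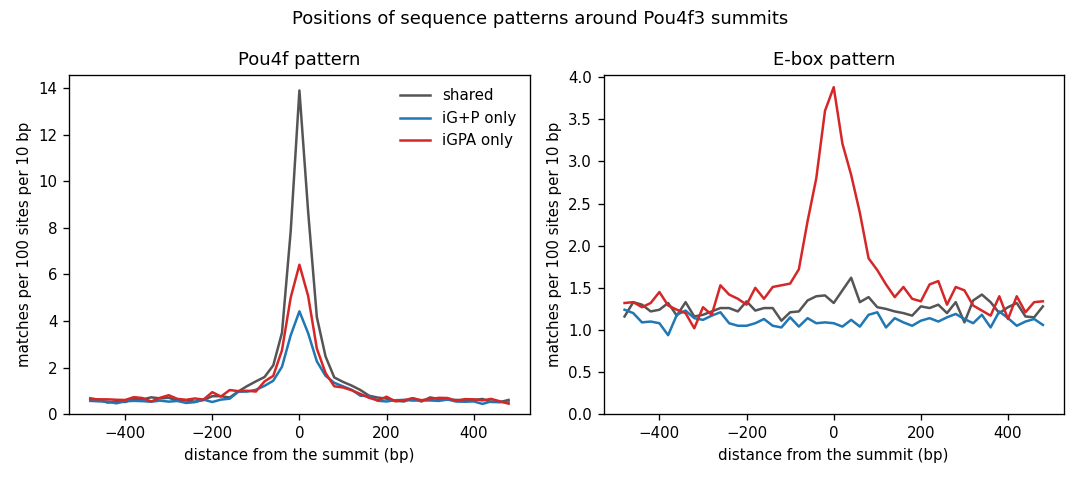
Matches of the Pou4f pattern (left) and the E-box pattern (right) per 100 sites per 10 bp (vertical axis) against distance from the Pou4f3 summit (horizontal axis, bp), with 1 line per class. The Pou4f pattern peaks at the summit in every class, at 13.9 in shared, 6.42 in iGPA only and 4.42 in iG+P only sites, and the E-box pattern peaks in iGPA only sites, at 3.88 beside 1.32 and 1.08 in shared and iG+P only sites.

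Words of 6 letters were counted with no pattern chosen. At shared sites the words with the largest ratio of summit to flank share were AT-rich. ATTAAT was found at 30.5% of shared sites and 8.27% of their flanks, AATAAT at 65.3% and 18.3%, GCATTA at 27.7% and 7.94%, AATTAT at 53.4% and 15.9% and TAATTA at 26.5% and 8.21%. At iG+P only and iGPA only sites the leading words were made of CG, such as CGCGCG at 5.80% of iG+P only sites and 1.11% of flanks and CGCGGC at 7.66% of iGPA only sites and 1.60% of flanks. Set against each other, iGPA only sites differed from iG+P only sites most in the words CAGCTG (19.6% and 9.07%) and CAGATG (27.6% and 15.1%).

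The iGPA only sites with stronger Pou4f3 peaks more often had Atoh1 peaks. Outside dense tracts, iGPA only sites with a −log10 p under 5, 5 to 7, 7 to 10, 10 to 15, 15 to 20 and 20 or more had an iGPA Atoh1 peak at 17.5%, 19.9%, 24.4%, 41.6%, 59.1% and 80.6%. The 95% interval was 13.2% to 22.5% in the weakest band and 74.8% to 85.7% in the strongest. The E-box pattern went from 26.8% in the weakest to 78.3% in the strongest band and the iP+A Pou4f3 peak from 11.4% to 69.6%. The iPou4f3 share stayed between 18.9% and 24.4% and the Pou4f pattern between 32.5% and 46.5%. The strongest band held 217 sites and the weakest 280.

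Shared sites had iPou4f3 peaks at 41.5% in the weakest and 93.2% in the strongest band. Their iGPA Atoh1 peaks lay between 9.59% and 26.3%, with 14.0% in the weakest and 26.3% in the strongest band. The iP+A Pou4f3 share was also higher in the strongest than in the weakest band of the other classes. It was 27.5% and 88.2% of shared and 8.60% and 44.1% of iG+P only sites, from weakest to strongest. The E-box pattern went from 15.2% to 33.0% at shared and from 24.7% to 11.8% at iG+P only sites. In the weakest band of iG+P only sites 9.94% had an iGPA Atoh1 peak. The iG+P only sites had few strong members, 102 of them with a −log10 p of at least 20 outside dense tracts, and among these 31.4% had an iGPA Atoh1 peak, 52.0% an iG+A Atoh1 peak, 12.7% the Pou4f pattern and 11.8% the E-box pattern. Values at shared and iGPA only sites are banded by the iGPA list and those of iG+P only sites by the iG+P list, so equal bands are not equal strength.

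**Figure D4:**
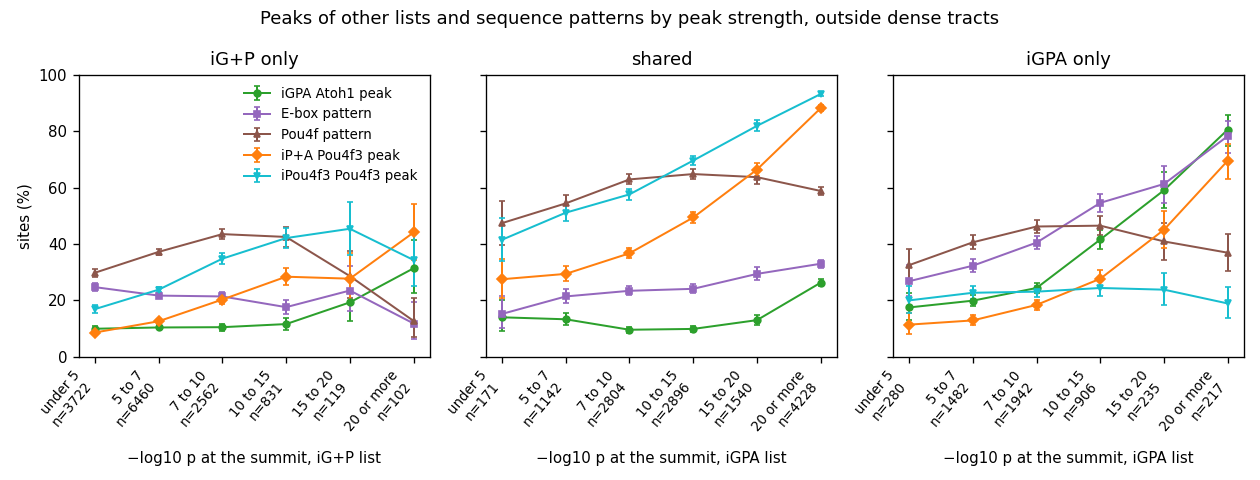
Share of sites (vertical axis, percent) with an Atoh1 peak of iGPA, a Pou4f3 peak of iP+A or iPou4f3, or a sequence pattern, by −log10 p at the Pou4f3 summit (horizontal axis) for each class outside dense tracts. Points are shares and bars 95% intervals, with the number of sites under each band. At iGPA only sites the Atoh1, E-box and iP+A lines climb to 80.6%, 78.3% and 69.6%, while the iPou4f3 line ends at 18.9%.

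Shared and iGPA only sites with an iGPA Atoh1 peak had peaks of both factors in iGPA and are called co-bound here. The iG+P only sites with an iGPA Atoh1 peak had no kept iGPA Pou4f3 peak, so their Pou4f3 summit is that of the iG+P line and their Atoh1 summit that of the iGPA line. The sites were chosen by overlap of 300 bp windows, which bounds the distance between the summits, and the distances are a description. The median distance was 32 bp at iGPA only, 37 bp at shared and 77 bp at iG+P only sites with an Atoh1 peak, and 66.4% (64.1 to 68.7), 60.2% (58.1 to 62.2) and 38.9% (37.1 to 40.7) lay within 50 bp. The median Atoh1 fold was 4.43, 3.94 and 3.12 in the same order, against 3.45 over the whole iGPA Atoh1 list. Co-bound iGPA only sites held the E-box pattern alone at 51.9%, with the Pou4f pattern at 20.0%, the Pou4f pattern alone at 4.92% and neither at 23.2%. Co-bound shared sites held the E-box pattern alone at 26.4%, both at 26.6%, the Pou4f pattern alone at 15.8% and neither at 31.2%. The iG+P only sites with an iGPA Atoh1 peak held neither at 64.7% (62.9 to 66.5), and 47.2% of them lay in dense tracts.

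Co-bound shared and iGPA only sites also differed in iPou4f3. At co-bound sites over 1 kb from a start and outside dense tracts, the iPou4f3 list had a peak at 73.6% of shared and 9.21% of iGPA only sites, and the iP+A Pou4f3 list at 80.5% and 35.4%. In the same sites the iP+A Atoh1 list had a peak at 61.3% of shared and 69.2% of iGPA only sites and the iAtoh1 list at 8.92% and 14.3%. The E-box pattern was found at 62.7% and 83.6%, and the Pou4f pattern at 54.5% and 30.7%.

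Sites without an Atoh1 peak of iGPA made up the larger part of each class. At such sites over 1 kb from a start and outside dense tracts, the E-box pattern was found at 30.3% (28.7 to 32.0) of 3022 iGPA only, 22.3% (21.4 to 23.1) of 9708 shared and 22.4% (21.6 to 23.3) of 9667 iG+P only sites. The Pou4f pattern was found at 57.3%, 66.8% and 48.3% and an iPou4f3 peak at 22.9%, 73.8% and 19.4% in the same order. Gfi1 peaks lay at 0.728%, 0.865% and 0.797% of these sites, and at 11.8%, 14.6% and 8.06% of the sites with an iGPA Atoh1 peak over 1 kb from a start and outside dense tracts.

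Sites near annotated starts had Atoh1 peaks in every class. Of all sites, 17.6% lay within 1 kb of a transcript start, with 21.9% (21.3 to 22.5) of iG+P only, 15.9% (14.9 to 16.9) of iGPA only and 12.1% (11.5 to 12.6) of shared sites. Introns held 33.7%, 36.9% and 42.1% in the same order and intergenic sequence 41.8%, 44.7% and 43.9%. The median distance to a start was 9342 bp at iG+P only, 18318 bp at iGPA only and 17164 bp at shared sites. Outside dense tracts, sites near a start had an iGPA Atoh1 peak at 35.4% of iGPA only, 33.0% of shared and 26.8% of iG+P only sites. Their median GC content was 66.8%, 56.0% and 68.4%, and the Pou4f pattern was found at 10.1%, 31.9% and 7.98%. The flanks of the classes of 1 line held it at 7.52% and 7.65%, close to the iG+P only share and below the iGPA only share.

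The dense tracts held 6001 sites, 2102 of them in the 5 largest. The largest spanned 2120 kb of chromosome 14 near Gm3164 and Gm3002 and held 633 iG+P only, 45 shared and 29 iGPA only sites. On chromosome 14, 22.2% of iG+P sites were shared over all and 48.9% outside the tracts. Another tract on chromosome 13 lay at the Prl2c3 and Prl2c2 genes, members of the prolactin family, with 152 iG+P only, 28 shared and 16 iGPA only sites. Outside the tracts 48.1% (47.5 to 48.7) of 26577 iG+P sites and 71.6% (71.0 to 72.3) of 17843 iGPA sites were shared. A local background over 2 times the usual value was recovered at 1.52% of iG+P only, 0.706% of iGPA only and 0.682% of shared sites, and its part in the classes was not tested.

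Genes were assigned by the nearest start of a protein-coding gene, with Gfi1 added. Shared sites were nearest to 7019 of 22226 genes (31.6%), iG+P only sites to 8092 (36.4%) and iGPA only sites to 3712 (16.7%). Sites of all 3 classes were nearest to 1711 genes (7.70%), and 794 genes (3.57%) had iGPA only sites and no others. Outside dense tracts the genes with most shared sites included Arid1b (15), Auts2, Cntn5 and Ebf1 (14 each). Those with most iGPA only sites were Macrod2 (11) and Igsf11, Ptprg and Zeb2 (10 each), and those with most iG+P only sites Odz2 and Pcdh7 (20 each). These genes lie in wide stretches free of other starts, from 793 kb for Ebf1 to 3847 kb for Pcdh7, beside a median of 45.6 kb over all genes.

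Hair cell genes had 126 sites, of which 43.7% were shared, 42.1% iG+P only and 14.3% iGPA only, beside 40.4%, 43.6% and 16.0% of all sites outside dense tracts. Of the 44 genes matched, 27 had a shared site (61.4%), 21 an iG+P only site (47.7%) and 13 an iGPA only site (29.5%), beside 31.6%, 36.4% and 16.7% of all genes. The stretch nearest to their starts had a median of 74.3 kb, beside 45.6 kb over all genes. An iGPA Atoh1 peak lay at 8 of the 18 iGPA only sites (44.4%), 12 of the 55 shared sites (21.8%) and 2 of the 53 iG+P only sites (3.77%). The 13 genes with an iGPA only site included Barhl1, Gfi1, Lhx3, Tmc1, Atoh1, Grxcr1, Myo6, Cdh23, Myo15, Ocm, Whrn and Calb2. Among all protein-coding genes outside dense tracts, 29.8% of iGPA only sites had an Atoh1 peak, and the 8 of 18 sites rest on a small number. Of the 8, 2 lay in exons of Atoh1 and Gfi1, which the iGPA cassette also carries. Without sites in exons of the factors the count was 6 of 16 (37.5%). Pluripotency genes also had an iGPA Atoh1 peak at 4 of 9 iGPA only sites (44.4%). This share was 31.6% (12 of 38) in neuronal, 21.1% (4 of 19) in sensory neuron and 26.7% (4 of 15) in mesoderm and endoderm genes.

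Lhx3, a LIM-homeodomain factor of hair cells and motor neurons, had a shared site and an iGPA only site whose summits lay 1126 bp apart, so that sites of different class stood side by side. They are printed with the Pou4f and E-box matches in capitals, followed by an iGPA only site of Cdh23 and a shared site of Myo6.
Lhx3, shared, chr2:26023320-26023519: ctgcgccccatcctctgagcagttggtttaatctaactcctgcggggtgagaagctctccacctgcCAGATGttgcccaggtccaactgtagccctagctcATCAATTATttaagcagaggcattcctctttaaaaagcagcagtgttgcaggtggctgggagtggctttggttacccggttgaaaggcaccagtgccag
Lhx3, iGPA only, chr2:26024446-26024645: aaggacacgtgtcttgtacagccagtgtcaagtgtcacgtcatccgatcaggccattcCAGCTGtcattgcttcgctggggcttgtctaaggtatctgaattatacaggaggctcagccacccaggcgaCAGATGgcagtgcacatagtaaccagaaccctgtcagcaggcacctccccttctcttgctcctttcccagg
Cdh23, iGPA only, chr10:59927070-59927269: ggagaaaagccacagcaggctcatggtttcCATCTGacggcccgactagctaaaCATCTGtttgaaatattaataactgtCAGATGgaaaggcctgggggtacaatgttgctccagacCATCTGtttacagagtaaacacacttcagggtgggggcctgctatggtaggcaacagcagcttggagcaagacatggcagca
Myo6, shared, chr9:80013148-80013347: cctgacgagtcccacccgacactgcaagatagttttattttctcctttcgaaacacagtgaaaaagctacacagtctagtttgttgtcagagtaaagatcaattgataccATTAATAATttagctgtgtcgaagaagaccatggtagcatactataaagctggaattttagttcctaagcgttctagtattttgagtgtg
The shared Lhx3 site had a Pou4f3 fold of 8.43 in iG+P, 18.6 in iGPA, 7.01 in iPou4f3 and 4.19 in iP+A, with Atoh1 folds of 11.4 in iGPA and 4.52 in iP+A. Its Gfi1 fold in iGPA was 4.12. The iGPA only Lhx3 site had a Pou4f3 fold of 10.3 in iGPA and 4.19 in iP+A, with Atoh1 folds of 15.1 in iGPA, 11.7 in iP+A, 7.34 in iG+A and 4.28 in iAtoh1. It held 2 E-boxes and no Pou4f match, while the shared site held 1 of each. At both sites the Pou4f3 and Atoh1 summits lay 2 bp apart.

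Cdh23 encodes the tip-link cadherin of hair bundles. Its iGPA only site had a Pou4f3 fold of 5.53 in iGPA, Atoh1 folds of 7.63 in iGPA and 4.95 in iP+A, 4 E-boxes and no Pou4f match, and no peak in iPou4f3 or in the Pou4f3 list of iP+A. Its other sites were 2 shared and 1 iG+P only, none with an Atoh1 peak of iGPA. Myo6, an unconventional myosin of hair cells, had 4 shared, 2 iG+P only and 1 iGPA only site and no iGPA Atoh1 peak at any of them. The printed site, 401 bp downstream of a start, had folds of 9.19 in iG+P, 11.1 in iGPA, 8.80 in iPou4f3 and 7.70 in iP+A.

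Otof, the synaptic protein otoferlin, had 1 shared site of folds 3.72 and 4.37 in iG+P and iGPA and 1 iG+P only site at its start. Espn, an actin-bundling protein of stereocilia, had 1 shared site of folds 3.17 and 5.97 and 2 iG+P only sites. Barhl2, a homeodomain factor, had 1 shared site of folds 7.77 and 9.32 and 3 iG+P only sites. No site was nearest to Myo7a, Tubb3 or Dcx. Peak lists hold no expression, so markers could not be used to check the cell type of the embryoid bodies here.

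Sites were also nearest to the genes of the factors, whose exons have the sequence of the inserted copies. Atoh1 had 2 shared, 6 iG+P only and 1 iGPA only site, Gfi1 had 1, 2 and 2, and Pou4f3 had 6, 3 and 0. The iGPA only Atoh1 site lay 291 bp downstream of the start in the coding exon, with folds of 3.32 for Pou4f3 and 5.41 for Atoh1. A called summit in this exon was found in all 7 lists from lines that carry Atoh1 and in neither the iG+P nor the iPou4f3 list, as the labels of the lines would have it. Summits in Gfi1 exons were found in 8 lists, among them those of iPou4f3 and iP+A, which lack the Gfi1 transgene, and summits in the Pou4f3 exons in all 9, so these exons did not separate the lines. Whether fragments there came from the inserted copies was not tested.

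Neuronal genes had the largest share of iGPA only sites among the 8 lists, 38 of 165 sites (23.0%, 16.8 to 30.2), and 89 shared sites (53.9%, 46.0 to 61.7). Of 44 neuronal genes, 26 had a shared site (59.1%), 20 an iG+P only site (45.5%) and 19 an iGPA only site (43.2%), beside 31.6%, 36.4% and 16.7% of all genes, and their stretches had a median of 120 kb beside 45.6 kb. Ebf1, a helix-loop-helix factor, had 14 shared, 2 iG+P only and 5 iGPA only sites, and Myt1l, a zinc-finger factor of neurons, had 8, 0 and 3. An iGPA only site 732 bp from a start of Myt1 had a Pou4f3 fold of 9.76, an Atoh1 fold of 11.3 and 4 E-boxes. An iGPA only site 112000 bp upstream of Lhx1, a LIM-homeodomain gene, had a Pou4f3 fold of 9.90, an Atoh1 fold of 14.8 and 2 E-boxes. Neither had a kept Pou4f3 peak in iPou4f3. In iP+A the Myt1 site had a Pou4f3 peak of fold 4.14 and the Lhx1 site had none.

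The strongest shared site of the neuronal list was 235 bp upstream of a start of Nhlh1, a helix-loop-helix gene of young neurons. Its Pou4f3 fold was 16.3 in iG+P, 34.8 in iGPA, 13.9 in iPou4f3 and 13.9 in iP+A, and its Atoh1 fold 40.9 in iGPA, 21.4 in iP+A, 3.60 in iG+A and 3.05 in iAtoh1. The summits of the factors lay 1 bp apart. At a start of Neurog1, which begins sensory neuron development in the ear, a shared site had folds of 16.7 in iG+P and 20.8 in iGPA and no Atoh1 peak in the 4 lists.

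Axon guidance genes had 321 sites, of which 46.7% were shared, 34.9% iG+P only and 18.4% iGPA only, and 22 of 41 genes (53.7%) had an iGPA only site, beside 16.7% of all genes. They lie in wide stretches, with a median of 472 kb beside 45.6 kb over all genes. Robo1 had 28 sites (12 shared, 8 iG+P only and 8 iGPA only) and Robo2 had 23 (10, 5 and 8), both receptors for Slit proteins. An iGPA only site in an intron of Nrcam, a neural adhesion gene, had a Pou4f3 fold of 7.14, an Atoh1 fold of 15.3 and 3 E-boxes, and a site in Epha7, an ephrin receptor gene, had a Pou4f3 fold of 7.28 and no Atoh1 peak. Atoh1 peaks lay at 14 of the 59 iGPA only sites (23.7%), beside 29.8% of all iGPA only sites outside dense tracts.

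Sensory neuron genes had 102 sites, with 47.1% shared, 34.3% iG+P only and 18.6% iGPA only. Runx1 had 6 shared, 4 iG+P only and 6 iGPA only sites, 4 of these 16 with an Atoh1 peak, and Pou4f1, the close relative of Pou4f3, had 7, 2 and 1. Ntrk3, the neurotrophin-3 receptor, had a shared site of folds 18.8 in iG+P, 34.7 in iGPA and 31.5 in iPou4f3. This site had an Atoh1 fold of 5.66 and a Gfi1 fold of 4.18 in iGPA.

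Notch pathway genes had 67 sites, with 41.8% shared, 43.3% iG+P only and 14.9% iGPA only, and 5 of the 10 iGPA only sites had an Atoh1 peak, a small number of sites beside the 29.8% of all iGPA only sites outside dense tracts. An iGPA only site 39443 bp upstream of Hey1, a Notch target gene, had a Pou4f3 fold of 7.86 in iGPA and 4.30 in iP+A, and an Atoh1 fold of 11.7 in iGPA and 6.56 in iP+A. Pluripotency genes had 66 sites, with 43.9%, 42.4% and 13.6%, and Sall4, a zinc-finger factor of stem cells, had a shared site 39 bp from a start with folds of 15.4 in iG+P and 32.2 in iGPA. The Sall4 site had an Atoh1 fold of 4.18 and a Gfi1 fold of 4.26 in iGPA. Mesoderm and endoderm genes had 82 sites, with 37.8%, 43.9% and 18.3%. Hox genes had 36 sites, with 33.3%, 61.1% and 5.56%, and none with an iGPA Atoh1 peak. Of the 946 sites nearest to a listed gene, 16 lay in dense tracts, so the shares are best read beside those of all genes outside the tracts, 40.4%, 43.6% and 16.0%. The 95% intervals of neuronal genes exclude all 3 values and those of axon guidance genes exclude the shared and iG+P only values, while those of the other lists include all 3. Sites of 1 gene are not independent, so these intervals are too narrow.

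**Figure D5:**
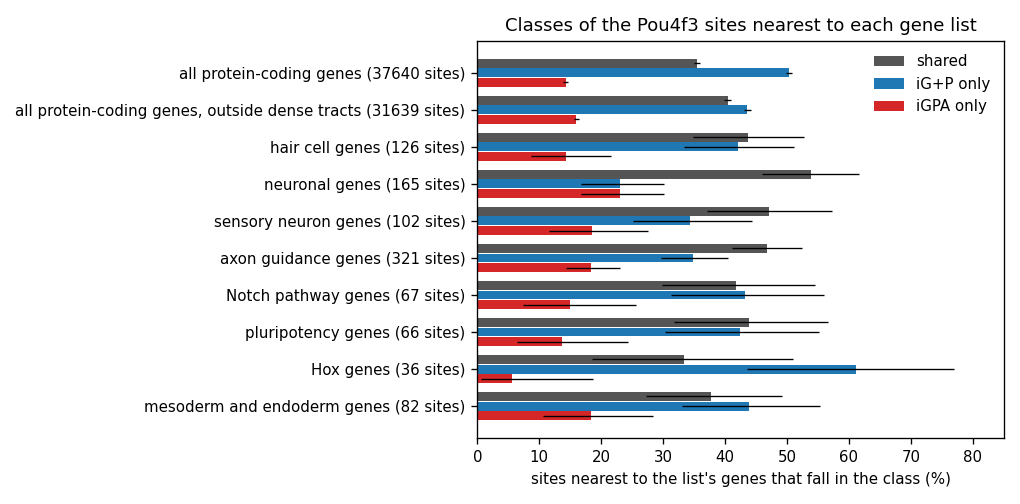
Share of the sites nearest to each gene list that fall in each class (horizontal axis, percent), with 95% intervals as black lines and the number of sites in brackets. Neuronal genes have 53.9% shared and 23.0% iGPA only sites, beside 40.4% and 16.0% over all genes outside dense tracts, and Hox genes have 5.56% iGPA only sites.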

How the data were processed

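The study's methods give mm9 alignment with Bowtie 2 after trimming, removal of duplicate, poorly mapped and blacklisted reads, and MACS 2 peak calling in which replicates, and their inputs, were merged. The deposited peak files give for each peak a fold enrichment (a ratio) and a −log10 p. The deposited summit lists name the peaks the authors kept and carry a score column whose definition is not given in the sources used here, so that the score was not used. The filter that left out 19.9% of called iG+P and 14.1% of called iGPA Pou4f3 peaks is likewise not given there. Fragment counts and local background were recovered from fold and −log10 p with a tolerance of 0.001. Read totals were not used here.

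A site took its reference summit from the iGPA peak of highest fold, or else from the iG+P peak, and a peak of another list was present when its 300 bp window overlapped by at least 1 bp. Patterns were counted in 250 bp around that summit and 1000 bp to each side in NCBIM37, the assembly of mm9, and starts were those of GENCODE M1 transcripts. Genes were protein-coding genes plus Gfi1, which is typed otherwise there, and older symbols were matched through RefSeq synonyms. A difference between classes was called when its Newcombe 95% interval excluded 0 and, since sites are not replicates, no p-value was given over them. Sites were named as the 3 of highest fold per class outside short tandem repeats (units of 1 to 12 bp at 80% of 100 bp) and chromosome 18, the highest Atoh1 fold per class, and the sites of marker and listed genes. The members and gene lists were chosen with earlier results of these data known. The dense tracts, the band of −log10 p 7 to 10 and the shared runs were chosen after the data were seen. Python 3.11.15, numpy 2.4.6, pandas 2.3.3 and scipy 1.17.1 were used, and the code was tested on simulated data. A few genes that these rules name are not reported here.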

Additional observations from a re-analysis of the deposited data

Results flagged for a closer look

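Peaks that were called but left out of the summit lists were not used to form the classes, and some lay at sites of the class of 1 line. A called iGPA Pou4f3 peak outside the kept summits overlapped 898 iG+P only sites, 4.75% (4.45 to 5.06), against 1.63% of windows 5 kb to each side, and 2.62% against 0.138% outside dense tracts. A called iG+P Pou4f3 peak outside the kept summits overlapped 210 iGPA only sites, 3.90% (3.40 to 4.45), against 0.910% of windows 5 kb to each side, and 2.11% against 0.0988% outside dense tracts. They stay in their class here because the classes rest on the kept summits.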

How the results depend on the processing

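Of 266 values recomputed under alternative settings, 221 were counted as unchanged. Class sizes, gene counts and shared percentages have no direction or limit, and were judged by their distance from the main value. Differences between classes were counted as unchanged when they kept their direction and their side of the limit. The surplus of iGPA Atoh1 peaks at iGPA only sites kept both in 11 settings, at 7.06 (equal list length) to 23.9 points (distal sites outside dense tracts) over iG+P only and 5.74 (all called peaks) to 15.0 over shared sites, and that of the E-box pattern in 13 settings, at 5.47 to 22.5 and 3.08 to 17.8 points. The surplus of the Pou4f pattern over iG+P only sites kept both in 11 of 12 settings (1.01 to 18.6 points) and fell to 2.76 points, with an interval that includes 0, for −log10 p 7 to 10. With 2 choices changed together, no mismatch and distal sites outside dense tracts, it was −1.28 points (−2.21 to −0.303). The cause of the changes below was not tested. Settings for dense tracts and for −log10 p 7 to 10 were chosen after seeing the data.

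The share of iG+P and iGPA sites that were shared was 38.3% and 66.6% with windows of 100 bp, 46.7% and 74.0% with 1000 bp, 40.7% and 70.6% with full peak intervals, 63.3% and 61.5% for −log10 p of at least 10, and 58.0% and 57.9% at equal list length. The iG+P share was 39.5% with all called peaks and 48.1% outside dense tracts. For −log10 p of at least 10 there were 6287 shared and 3638 iG+P only sites, nearest to 4297 and 2030 genes. At equal list length there were 7846 iG+P only sites, nearest to 3864 genes. The iGPA only sites numbered 3943 and 7882 in these settings.

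In the next values a difference is that of iGPA only from iG+P only sites unless shared sites are named. For iPou4f3 peaks it was 2.69 points with 100 bp windows, −3.86 with 1000 bp, 5.16 for −log10 p of at least 10, 1.94 at equal length, −2.46 outside dense tracts and −0.440 at distal sites outside them. For iP+A Pou4f3 peaks it was −3.13 for −log10 p of at least 10, 1.01 at equal length and −6.52 with all called peaks. For iP+A Atoh1 peaks it was −0.963, −2.15 and −4.34 in the same settings. For iG+A Atoh1 peaks it was −0.524 outside dense tracts and 0.430 at distal sites outside them, and −1.79 from shared sites with all called peaks. For iAtoh1 peaks the difference from shared sites was 0.767 with 1000 bp windows and −4.04 with all called peaks. For Gfi1 peaks the difference from shared sites was 0.314 with 1000 bp windows, 0.532 with full intervals, 0.153 for −log10 p of at least 10, 0.0506 at equal length and −0.637 with all called peaks. For sites within 1 kb of a start it was −1.16 at equal length, and from shared sites 0.849 with 1000 bp windows, −2.18 for −log10 p of at least 10 and −1.25 for −log10 p 7 to 10.

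No paired analysis was possible because the lists were called on merged replicates. For the same reason no alternative leaves out a replicate. The lowest fold called at the usual background was 2.62 in the iGPA list and 2.30 in the iG+P list, which limits the weak sites each holds.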
